A study of Mus musculus with 12 samples.

Results

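The CC chemokines examined here are 10 mouse genes, Ccl2, Ccl3, Ccl4, Ccl5, Ccl6, Ccl7, Ccl8, Ccl9, Ccl11 and Ccl12, taken by gene symbol from an expression array of cultured heart cells. All 10 were measured, each by 1 probe set, among 19505 named genes. The cells were cardiac fibroblasts from the hearts of wild-type C57BL/6J mice aged 1 to 7 days, kept for 10 to 14 days in culture, over which time they became myofibroblasts, the contractile, matrix-producing state of the fibroblast. They were exposed for 8 h to 40 nM sCD74 together with 8 nM MIF, to 8 nM MIF alone, to 40 nM sCD74 alone, or to carrier, with 3 arrays in each of the 4 groups. MIF (macrophage migration inhibitory factor) is a cytokine that binds the cell-surface protein CD74, and sCD74 is a soluble form of that protein. The comparisons address what each agent does to chemokine transcripts and whether soluble CD74 alters the action of MIF.

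CC chemokines are small secreted proteins, named for a pair of adjacent cysteines, that bind G protein-coupled receptors on leukocytes and draw those cells along a gradient. Ccl2, Ccl7, Ccl8 and Ccl12 belong to the monocyte chemoattractant proteins, and Ccl11, eotaxin, attracts eosinophils through Ccr3. Ccl3, Ccl4 and Ccl5 are inflammatory chemokines that attract monocytes and T cells, and Ccl6 and Ccl9 are rodent chemokines that act through Ccr1. In the injured heart, fibroblasts, macrophages and endothelial cells are all known sources of such chemokines, and Ccl2 in particular brings in Ccr2-bearing monocytes.

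Replicates 1, 2 and 3 of every group carry the same code in their titles, read as a date and called date codes 1, 2 and 3 below, so that each date code holds 1 array of each treatment. The labels do not say whether replicates came from separate cell isolations, and p-values therefore measure the spread between these arrays, which may be partly technical. Values are given as deposited, on a log2 scale. The median of the negative control probe sets, averaged over arrays, was 7.53. It was highest on the sCD74 array of date code 3, at 7.90. The carrier arrays of date codes 1 and 3 followed, at 7.69 and 7.70, and every array with MIF lay at 7.39 to 7.48. The positive control median stood 3.67, 3.77 and 3.98 above the negative one on those sCD74 and carrier arrays. On all other arrays it stood 4.04 to 4.25 above. The part of this in the treatment differences was not tested. Fibroblast markers averaged 15.38 to 15.64 on every array, with Acta2, the smooth muscle actin of myofibroblasts, at 16.56 and Col1a1 at 16.11 over the 12 arrays. Macrophage transcripts were also abundant, the mean of the 15 measured markers lying between 11.50 and 12.90, with Lyz2 at 17.22. By contrast 5 of 6 lymphocyte markers and 5 of 7 neutrophil and mast cell markers lay below 7.53. The values are therefore those of cultures that held macrophage as well as fibroblast transcripts, and fewer cells of a type cannot be told apart from less RNA per cell.

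In the mouse annotation the genes lie on chromosome 11 in a pair of uninterrupted runs of coding genes, Ccl2, Ccl7, Ccl11, Ccl12 and Ccl8 in the first and Ccl5, Ccl9, Ccl6, Ccl3 and Ccl4 in the second. Promoter sequence from RefSeq (GRCm38.p6) matched 5 members, Ccl3, Ccl6, Ccl8, Ccl9 and Ccl12. Those of Ccl12 and Ccl8 are shown because these neighbours differed together between date codes, and that of Ccl9 because it held the NF-kappaB and AP-1 matches, with the 250 bases before the start site in each case, 5′ to 3′ on the gene's own strand. Capitals mark every match to 5 motifs searched on both strands, namely the NF-kappaB consensus, the AP-1 site TGANTCA, the interferon-stimulated response element core (GAAA, any 2 bases, GAAA), the GAS element TTCNNNGAA and the TATA box core TATAAA.
Ccl12 promoter, chr11:82101595-82101844, plus strand: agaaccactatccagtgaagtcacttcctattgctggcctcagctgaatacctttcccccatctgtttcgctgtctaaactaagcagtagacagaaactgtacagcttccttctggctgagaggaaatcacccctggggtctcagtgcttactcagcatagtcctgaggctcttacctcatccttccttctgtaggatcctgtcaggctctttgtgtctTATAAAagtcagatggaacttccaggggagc
Ccl8 promoter, chr11:82114935-82115184, plus strand: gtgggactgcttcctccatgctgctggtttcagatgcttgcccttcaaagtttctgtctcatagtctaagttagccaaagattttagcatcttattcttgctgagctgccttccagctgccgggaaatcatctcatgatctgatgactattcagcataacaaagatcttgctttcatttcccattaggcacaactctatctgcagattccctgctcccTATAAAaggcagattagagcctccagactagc
Ccl9 promoter, chr11:83578637-83578886, minus strand: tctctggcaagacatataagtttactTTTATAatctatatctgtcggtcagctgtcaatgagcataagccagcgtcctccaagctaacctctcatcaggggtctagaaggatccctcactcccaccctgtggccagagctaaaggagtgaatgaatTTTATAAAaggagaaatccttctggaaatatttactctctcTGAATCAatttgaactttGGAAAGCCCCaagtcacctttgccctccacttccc

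The Ccl12 and Ccl8 windows each held a TATA box core, beginning 31 and 32 bases before the start, and no match to the other motifs. The Ccl9 window held an NF-kappaB match beginning 35 bases before the start on the reverse strand and an AP-1 match beginning 53 bases before it. It also held TATA box cores beginning 224, 94 and 92 bases before the start, of which the last pair overlap on opposite strands. The Ccl6 and Ccl3 windows held none of the 5 motifs. Of 32851 promoter windows of the same length, 7.25% held the NF-kappaB consensus, 6.75% the AP-1 site, 2.98% the interferon core, 7.02% the GAS element and 12.4% the TATA box core. A match is a run of letters, not a site shown to be bound.

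Among the monocyte chemoattractant genes, Ccl2 and Ccl7 were the members whose values followed MIF most closely. Ccl2, the main ligand of Ccr2, measured 14.72, 14.78 and 15.26 in co-treated cells, 13.00, 15.00 and 15.43 with MIF, 13.18, 13.63 and 13.77 with sCD74, and 13.23, 13.92 and 12.48 with carrier, in the order of date codes 1, 2 and 3. All 3 co-treated arrays and the MIF arrays of date codes 2 and 3 stood above every array without MIF, while the MIF array of date code 1 lay among the arrays without it. Ccl7, a second monocyte attractant that also binds Ccr2, measured 12.71, 12.60 and 12.84 in co-treated cells, 11.42, 12.59 and 12.93 with MIF, 11.33, 11.49 and 11.99 with sCD74, and 11.61, 11.56 and 11.28 with carrier. Its high arrays were the same 5 as those of Ccl2.

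Ccl12, the mouse chemoattractant that also acts on Ccr2, measured 12.38, 13.67 and 12.56 in co-treated cells, 11.91, 12.59 and 12.55 with MIF, 11.64, 12.97 and 11.15 with sCD74, and 11.63, 12.81 and 11.08 with carrier. The co-treated array was the highest of its date code in each of the 3, but the groups overlapped, because the arrays of date code 2 were high in every group. Ccl8, which in the mouse acts on Ccr8, measured 9.27, 10.47 and 8.70 in co-treated cells, 8.98, 9.57 and 9.35 with MIF, 9.26, 10.49 and 8.11 with sCD74, and 9.44, 10.38 and 9.17 with carrier. Date code 2 again gave the highest array of each group. Ccl11 stayed between 7.11 and 7.89 and was below its own array's negative control median on 7 of 12 arrays, and so was not well above background.

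Among the second run of genes, Ccl5, an attractant of T cells and monocytes, measured 8.16, 9.07 and 10.40 in co-treated cells, 7.59, 8.87 and 10.54 with MIF, 7.20, 8.50 and 8.94 with sCD74, and 7.43, 7.98 and 7.84 with carrier. Every co-treated array lay above every carrier array, the array of date code 1 was the lowest of its group in all 4 groups, and 2 arrays were below their own negative control median. Ccl9 measured 15.27, 15.40 and 15.38 in co-treated cells, 14.99, 15.12 and 15.40 with MIF, 14.81, 15.29 and 14.63 with sCD74, and 14.98, 15.18 and 15.01 with carrier, the co-treated arrays all above the carrier arrays by a small margin. Ccl3, an inflammatory ligand of Ccr1 made by macrophages, measured 12.59, 13.24 and 13.13 in co-treated cells, 12.26, 13.07 and 13.37 with MIF, 11.83, 13.24 and 12.52 with sCD74, and 11.96, 13.23 and 12.58 with carrier. Its lowest array in each group was that of date code 1. Ccl6 ran the other way, with 12.81, 12.21 and 11.90 in co-treated cells, 12.75, 11.97 and 12.01 with MIF, 12.41, 12.29 and 11.14 with sCD74, and 12.50, 12.25 and 11.93 with carrier. Ccl4, an inflammatory chemokine of macrophages and T cells, had the narrowest range of the second run, 9.03 to 9.66.

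**Figure D1:**
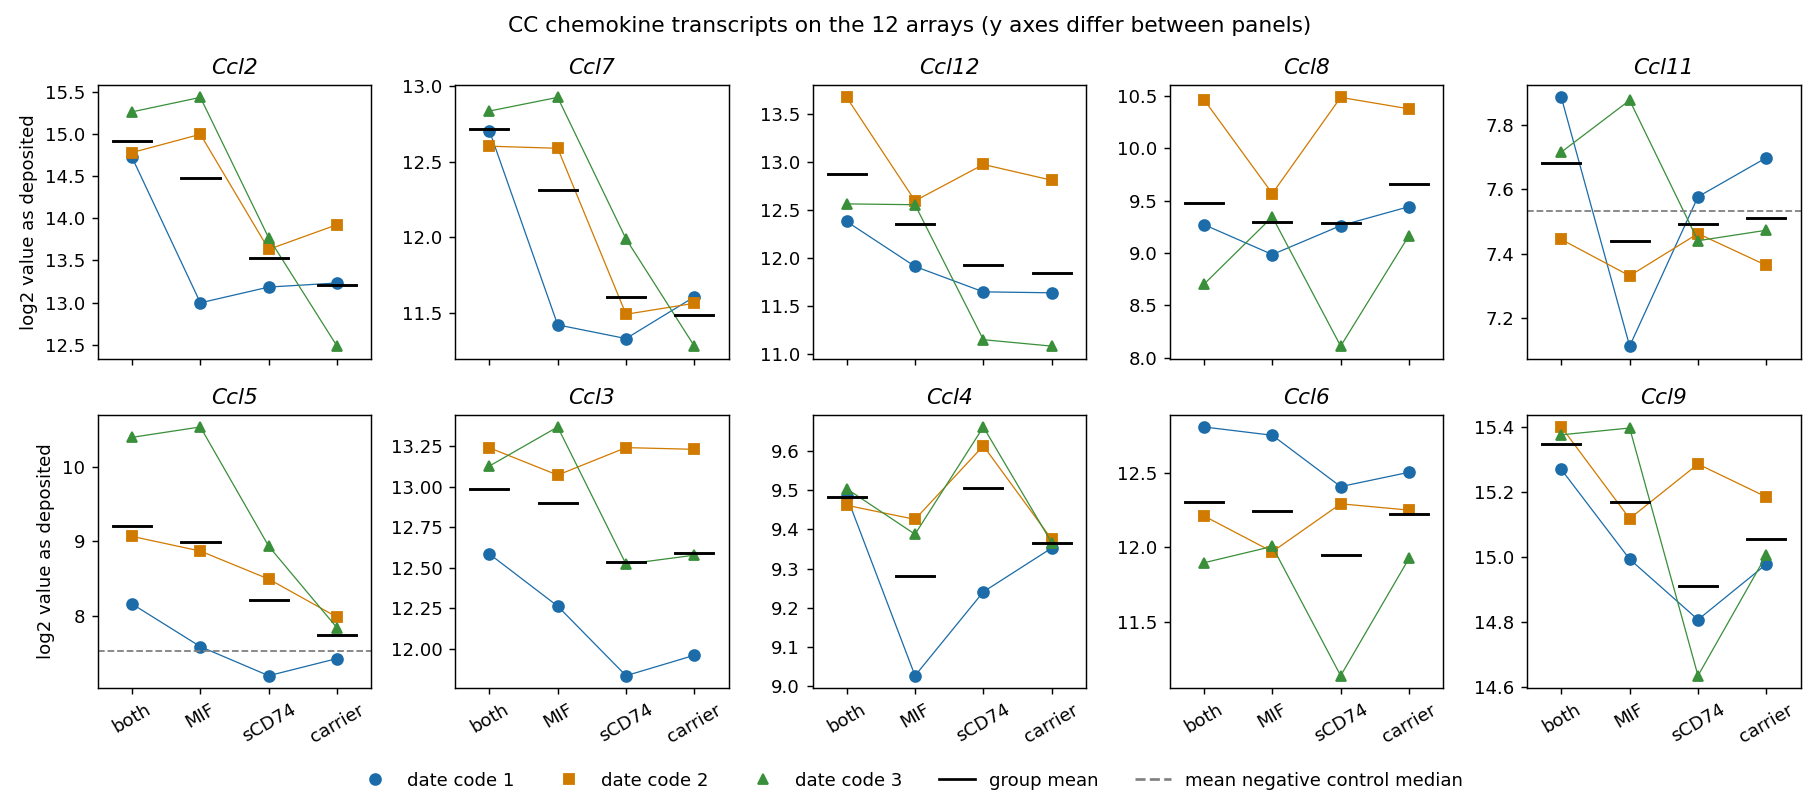
Log2 value as deposited (vertical axis) of each of the 10 CC chemokines on every array, by treatment from co-treated on the left to carrier on the right, with a colour and symbol per date code, black bars for group means and a dashed line at the mean negative control median. The 3 co-treated arrays of Ccl2 sit between 14.72 and 15.26, above the carrier arrays between 12.48 and 13.92.

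Co-treatment with sCD74 and MIF, set against carrier, gave higher values for 9 of 10 members, against 50.3% of all genes, with a member median of +0.34 (log2), or +0.54 without the carrier array of date code 2. Ccl2 averaged 14.92 ± 0.30 in co-treated cells and 13.21 ± 0.72 in carrier cells (SD, n = 3 each), a difference of +1.71 ± 0.51 (SE; 95% interval 0.60 to 2.82). Ccl7 averaged 12.71 ± 0.12 in co-treated cells and 11.48 ± 0.18 in carrier cells, a difference of +1.23 ± 0.31 (SE; 95% interval 0.57 to 1.89). Both intervals excluded 0 for the gene taken alone, but neither difference passed the test across all genes, each with limma's adjusted p = 0.999. The adjusted p was 0.534 for Ccl2 and 0.461 for Ccl7 when limma's fit included the date code as a replicate block.

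Ccl5 averaged 9.21 ± 1.12 in co-treated cells and 7.75 ± 0.29 in carrier cells (SD, n = 3 each), a difference of +1.46 ± 0.69 (SE). That carrier mean lay near the mean negative control median of 7.53. Ccl12 averaged 12.87 ± 0.70 in co-treated cells and 11.84 ± 0.88 in carrier cells, a difference of +1.03 ± 0.50 (SE). These errors are from the fit without the replicate block. With the block the SE was 0.34 for Ccl5 and 0.26 for Ccl12, with limma's adjusted p = 0.506 and 0.534. Without the co-treated array of date code 3 the Ccl5 difference was +0.86, and without the co-treated array of date code 2 that of Ccl12 was +0.63. The co-treated and carrier arrays did not overlap, all co-treated ones being higher, for 5 members, Ccl2, Ccl4, Ccl5, Ccl7 and Ccl9, against 4.52% of all genes. Ccl4 is among these with a difference of only +0.12. Within date codes, 8 members were higher in the co-treated array in all 3, against 14.2% of genes, with Ccl2 higher by 1.49, 0.86 and 2.78, Ccl7 by 1.10, 1.04 and 1.56, Ccl5 by 0.73, 1.08 and 2.56, and Ccl12 by 0.74, 0.86 and 1.48 in date codes 1, 2 and 3.

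No gene of the 19505 and no member passed limma's adjusted threshold of 0.05 in this comparison (0% called). Without adjustment 2 members, Ccl2 and Ccl7, had p under 0.05, against 4.0% of genes (780 genes). With the replicate block 4 did, Ccl2, Ccl5, Ccl7 and Ccl12, against 8.23%. The macrophage markers averaged 11.67 to 12.88 in co-treated cells and 11.87 to 12.87 in carrier cells. None of the 15 was called, their median difference was -0.17, and 11 lay below 0. The part of cell composition in the differences of Ccl2, Ccl7, Ccl5 and Ccl12 was not tested.

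MIF alone, set against carrier, gave smaller differences for Ccl2 and Ccl7 that rested on date codes 2 and 3. Ccl2 averaged 14.48 ± 1.30 with MIF and 13.21 ± 0.72 with carrier (SD, n = 3 each), a difference of +1.26 ± 0.51 (SE). Within date codes 1, 2 and 3 the MIF array of Ccl2 differed from its carrier array by -0.24, 1.07 and 2.95. Ccl7 averaged 12.31 ± 0.79 with MIF and 11.48 ± 0.18 with carrier, a difference of +0.83 ± 0.31 (SE), with within-date differences of -0.19, 1.03 and 1.65. Leaving out the MIF array of date code 1 gave +2.00 for Ccl2 and +1.27 for Ccl7, and leaving out that of date code 3 gave +0.78 and +0.52. Without all arrays of date code 3 the difference was +0.42 for both genes. The member median was +0.21, or +0.11 without the MIF array of date code 3 and +0.42 without that of date code 1, and 7 members lay above 0, against 52.7% of genes. The MIF arrays separated from the carrier arrays for no member, against 3.64% of genes separated upward. In all 3 date codes 1 member, Ccl5, was higher, against 13.7%. No gene or member was called by limma (0% called), each member with an adjusted p = 1.00, while Ccl2 and Ccl7 had unadjusted p under 0.05, against 3.35% of genes. With the replicate block 3 members, Ccl2, Ccl5 and Ccl7, had unadjusted p under 0.05, against 6.43%, and none was called.

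The sCD74 protein alone, set against carrier, gave differences with no common direction. In date code 3 they were 1.28 for Ccl2, 1.09 for Ccl5, 0.71 for Ccl7, -0.79 for Ccl6 and -1.06 for Ccl8. In date codes 1 and 2 those of the same genes lay between -0.29 and 0.51. The member median was +0.03, and 5 members were above and 5 below 0, against 50% of genes above. The arrays separated for no member, against 2.51% of genes separated upward, and 1 member was higher in all 3 date codes, against 12.4%. No gene or member was called by limma (0% called), with no member at unadjusted p under 0.05, against 1.79% of genes, or 4.19% with the replicate block, where again no member was among them. For Ccl2 the difference was +0.31, with a 95% interval of -0.80 to 1.42, and for Ccl7 it was +0.12, with an interval of -0.54 to 0.78, so that a difference of the size seen with MIF lies inside the interval for Ccl2 and just above it for Ccl7. The highest difference was that of Ccl5, +0.46, which was +0.10 without the sCD74 array of date code 3 and +0.96 without that of date code 1. The lowest was that of Ccl8, -0.38, which was +0.21 without the sCD74 array of date code 3 and -0.98 without that of date code 2. The sCD74 array of date code 3 was the one with the highest negative control median.

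**Figure D2:**
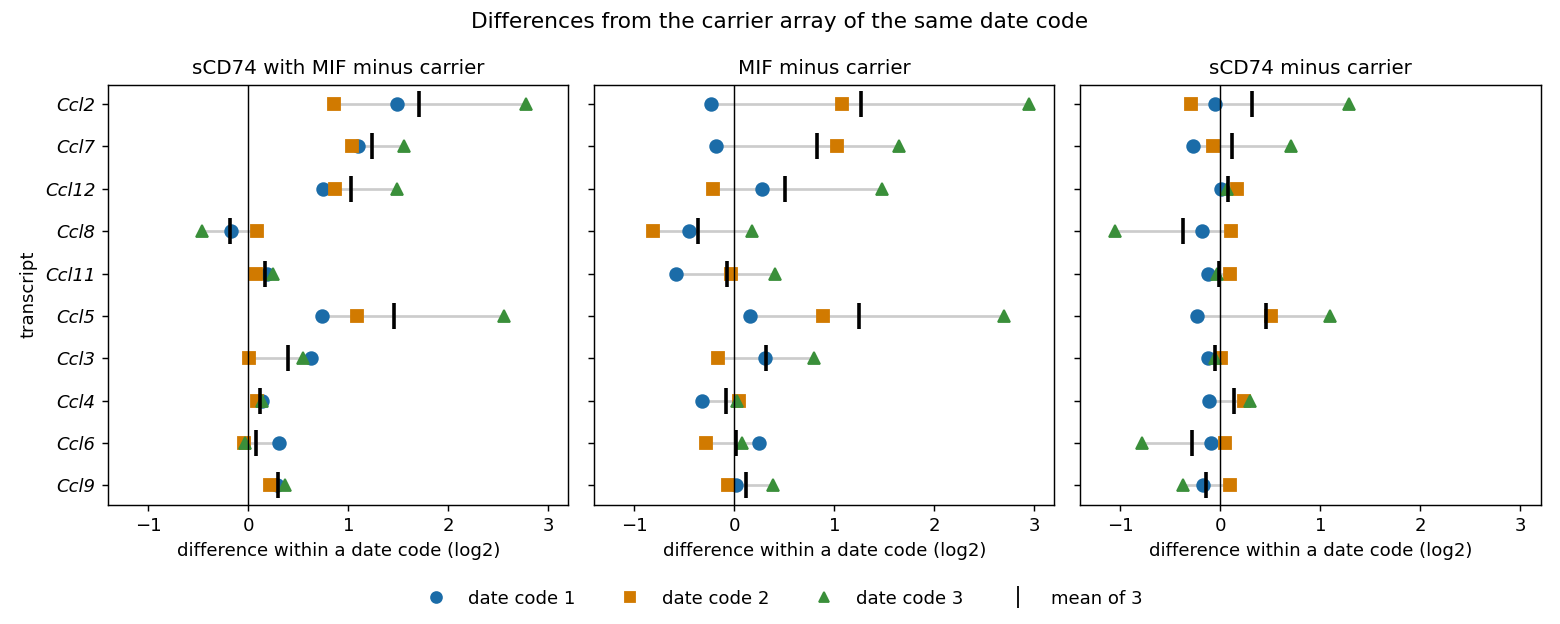
Difference (horizontal axis, log2) of the co-treated, MIF and sCD74 arrays from the carrier array of the same date code, for each CC chemokine, with a symbol per date code and a black tick for their mean. Under co-treatment the 3 points of Ccl2 (0.86 to 2.78) and of Ccl7 (1.04 to 1.56) all lie right of 0, and under MIF the date code 1 points of both lie at -0.24 and -0.19.

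The effect of MIF in the presence of sCD74 was read from co-treated against sCD74 arrays. Ccl2 averaged 14.92 ± 0.30 in co-treated cells and 13.53 ± 0.30 with sCD74 (SD, n = 3 each), and Ccl7 averaged 12.71 ± 0.12 in co-treated cells and 11.60 ± 0.34 with sCD74. Both were separated without overlap, against 3.95% of genes that separated upward, and Ccl2 differed by 1.54, 1.15 and 1.50 in date codes 1, 2 and 3, the most even set of within-date differences it showed against a group without MIF. In all, 9 members lay above 0, against 51.7% of genes, and 5 were higher in all 3 date codes, against 14.8%. Limma called no gene and no member (0% called), and Ccl2, Ccl7 and Ccl9 had unadjusted p under 0.05, against 2.67% of genes, the differences being +1.39, +1.11 and +0.44. With the replicate block 6 members had unadjusted p under 0.05, against 5.40%.

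The effect of sCD74 in the presence of MIF was read from co-treated against MIF arrays. All 10 members had positive differences, against 49.0% of genes, with a median of +0.21, or +0.05 without the MIF array of date code 1 and +0.39 without that of date code 3, but the sizes were small beside their error. Ccl2 was higher by 0.45 (95% interval -0.67 to 1.56) and Ccl7 by 0.40 (interval -0.26 to 1.06). For both genes the co-treated array stood above the MIF array in date code 1, by 1.73 for Ccl2 and 1.29 for Ccl7, and no further than 0.22 from it in either direction in date codes 2 and 3. No gene or member was called by limma (0% called), no member had an unadjusted p under 0.05, against 2.38% of genes, or 4.43% with the replicate block, where again there was none. For 2 members the co-treated array was higher in all 3 date codes, against 12.2% of genes, and Ccl4 alone separated without overlap, against 3.32%.

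The departure from additivity, the co-treated value plus carrier minus the 2 single treatments, was +0.13 for Ccl2, with a 95% interval of -1.44 to 1.70, and +0.28 for Ccl7, with an interval of -0.65 to 1.22. Limma called no gene or member (0% called) and no member had an unadjusted p under 0.05, against 1.86% of genes, or 3.86% with the replicate block, where again there was none. The member median was +0.27, and 9 members lay above 0, against 49.1% of genes. The intervals are wide enough to hold departures as large as the MIF differences themselves.

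Taking the 6 arrays with MIF against the 6 without, Ccl2 was higher by 1.33 ± 0.36 and Ccl7 by 0.97 ± 0.22 (SE), with limma's adjusted p = 1.00 for each and 0.422 for each with the replicate block. Ccl5 was higher by 1.12 ± 0.48, or by 0.74 without the MIF array of date code 3, Ccl9 by 0.28 ± 0.12 and Ccl12 by 0.73 ± 0.36 (SE). Limma called no gene and no member (0% called), 4 members, Ccl2, Ccl5, Ccl7 and Ccl9, had unadjusted p under 0.05, against 4.31% of genes, and with the block 6 did, against 8.16%. Without the MIF array of date code 1, Ccl7 differed by +1.19 with limma's adjusted p = 0.0337 and was the only gene called in that fit. The arrays with MIF overlapped those without for every member, 0.118% of genes separating upward, and 8 members lay above 0, against 52.5% of genes. For 5 members the with-MIF mean was higher in all 3 date codes, against 14.3% of genes. These comparisons share arrays, the comparisons with carrier all using the same 3 carrier arrays, and so are not independent of each other.

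For several members the differences between date codes were as large as those between treatments. In the date fits the arrays of a date code served as its replicates. Their p-values therefore measure the spread between arrays within date codes, not the spread between dates. Limma's fit of treatment and date code together called 16.4% of genes between date code 1 and the mean of date codes 2 and 3, 7.03% higher and 9.39% lower in date code 1, and 3 members were among them, 1 higher and 2 lower. Ccl5 was lower in date code 1 by -1.42 ± 0.26 (SE, adjusted p = 0.00234 by limma), with 7.20 to 8.16 there against 7.98 to 9.07 in date code 2 and 7.84 to 10.54 in date code 3. Its mean in date code 1 was 7.59, near the mean negative control median of 7.53. The carrier and sCD74 arrays of that code lay below their own negative control medians. Ccl3 was lower by -0.89 ± 0.14 (adjusted p = 0.0008 by limma), with 11.83 to 12.59 in date code 1 against 13.07 to 13.24 in date code 2 and 12.52 to 13.37 in date code 3. Ccl6 was higher by +0.66 ± 0.14 (adjusted p = 0.00617 by limma), with 12.41 to 12.81 against 11.97 to 12.29 and 11.14 to 12.01, and was the member whose arrays of date code 1 did not overlap the others, against 4.10% of genes separated upward. No member separated downward, against 5.71%. These 3 calls were kept when each array was left out in turn, with adjusted p no higher than 0.0309. A further call appeared without the carrier array of date code 3, when Ccl2 was lower by -0.98 (adjusted p = 0.0223 by limma), and without the MIF array of date code 2, when Ccl12 was lower by -0.66 (adjusted p = 0.0172 by limma).

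Between date code 3 and date code 2 limma called 1.15% of genes, 0.441% higher and 0.708% lower in date code 3, and 2 members, both lower, the neighbours Ccl12 and Ccl8. Ccl8 fell by 1.39 ± 0.25 (SE, adjusted p = 0.0223 by limma), with 8.11 to 9.35 in date code 3 and 9.57 to 10.49 in date code 2. Ccl12 fell by 1.18 ± 0.23 (SE, adjusted p = 0.0329 by limma), with 11.08 to 12.56 in date code 3 and 12.59 to 13.67 in date code 2. Neither overlapped, against 4.94% of genes separated downward, and no member separated upward, against 5.50%. Both calls were lost without the co-treated, carrier or sCD74 array of either date code, the adjusted p then being 0.0624 to 0.106 for Ccl8 and no higher than 0.151 for Ccl12. That of Ccl12 was also lost without the MIF array of date code 1, at limma's adjusted p = 0.0548, and with no treatment term, at 0.101. Without the carrier array of date code 3, Ccl5 was instead called higher in date code 3, by 1.22 (adjusted p = 0.0488 by limma).

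Transcripts of other cell types moved with the date codes. The macrophage markers averaged 11.50 to 11.87 on the arrays of date code 1, 12.61 to 12.90 on those of date code 2 and 12.21 to 12.56 on those of date code 3, and 14 of 15 were called lower in date code 1, with a median difference of -0.84. Endothelial markers averaged 10.40 to 10.54, 8.67 to 8.79 and 9.18 to 9.50 on the same arrays, 8 of 10 being called higher in date code 1 and 1, Vwf, lower. Cardiomyocyte markers averaged 9.50 to 9.80, 9.69 to 9.74 and 8.19 to 8.33, 5 of 7 being called lower in date code 3 than in date code 2. Over the 12 arrays, which share these 3 date codes, the macrophage marker mean correlated at r = 0.86 with Ccl3, 0.57 with Ccl8, 0.57 with Ccl12, 0.50 with Ccl9, 0.48 with Ccl4, 0.46 with Ccl5, 0.30 with Ccl2, 0.18 with Ccl7, -0.20 with Ccl11 and -0.41 with Ccl6. The part of cell composition in the date differences of Ccl3, Ccl5, Ccl6, Ccl8 and Ccl12 was not tested.

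**Figure D3:**
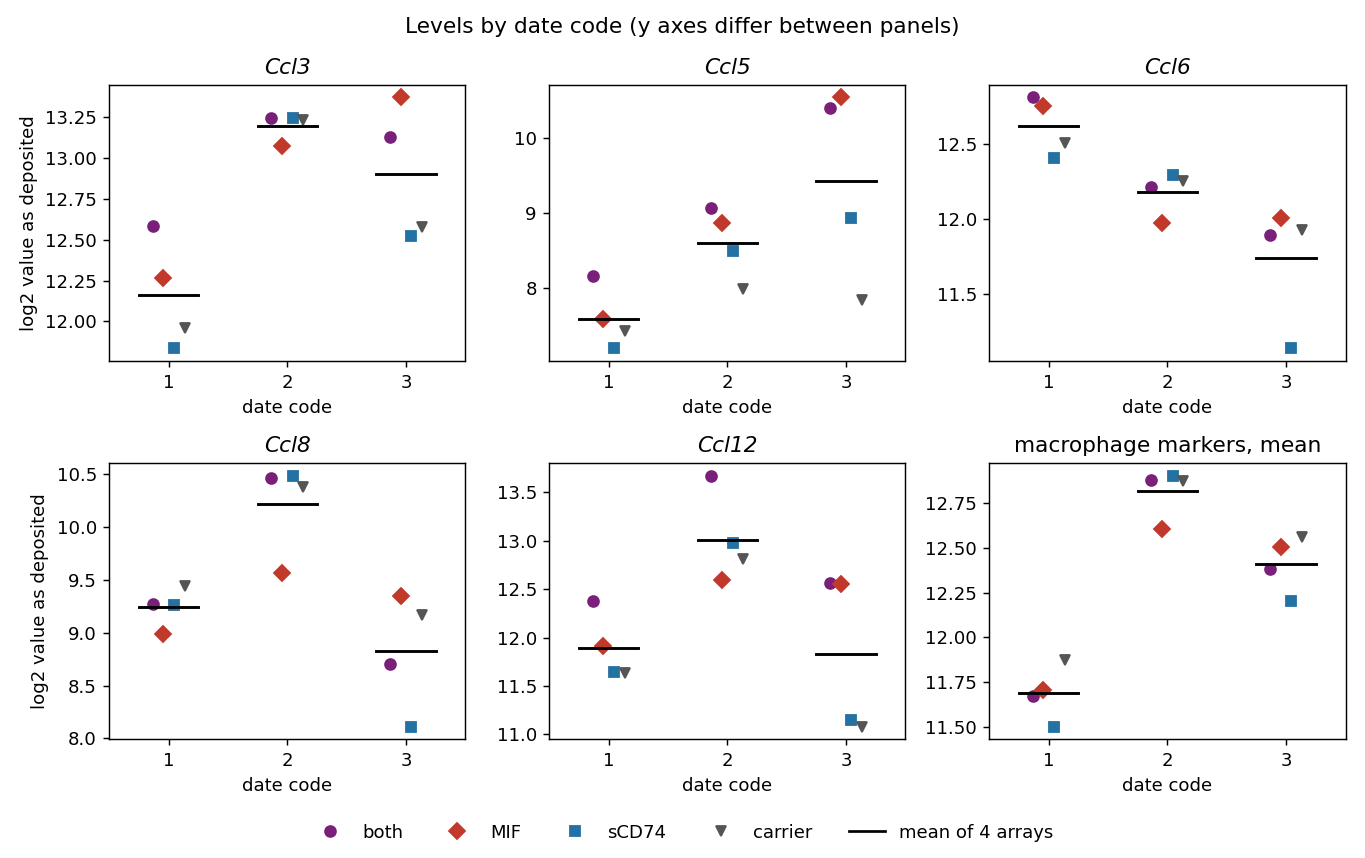
Log2 value as deposited (vertical axis) of Ccl3, Ccl5, Ccl6, Ccl8, Ccl12 and the mean of the macrophage markers by date code (horizontal axis), each point being 1 array coloured by treatment, with bars for the mean of 4 arrays. Ccl3, Ccl5 and the macrophage markers have their lowest and Ccl6 its highest mean in date code 1, and Ccl8 and Ccl12 are higher in date code 2, at 9.57 to 10.49 and 12.59 to 13.67, than in date code 3.

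The balanced layout allowed each member's sum of squares over the 12 arrays to be divided between treatment (4 groups), date code and the remainder. Treatment took the greatest share for Ccl7, at 66.2%, followed by Ccl2 at 54.6% and Ccl9 at 47.1%. The date code took the greatest share for Ccl3, at 72.2%, Ccl8, at 71.9%, and Ccl6, at 69.8%, followed by Ccl12 at 53.1% and Ccl5 at 52.4%. The median member had 31.4% for treatment and 43.5% for the date code, against 19.2% and 28.5% for all genes. Within the first run of neighbouring genes, treatment thus took the larger share for Ccl2 and Ccl7 and the date code for Ccl12 and Ccl8. For Ccl11, also of that run, the remainder took 63.8%, the date code 19.1% and treatment 17.1%.

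**Figure D4:**
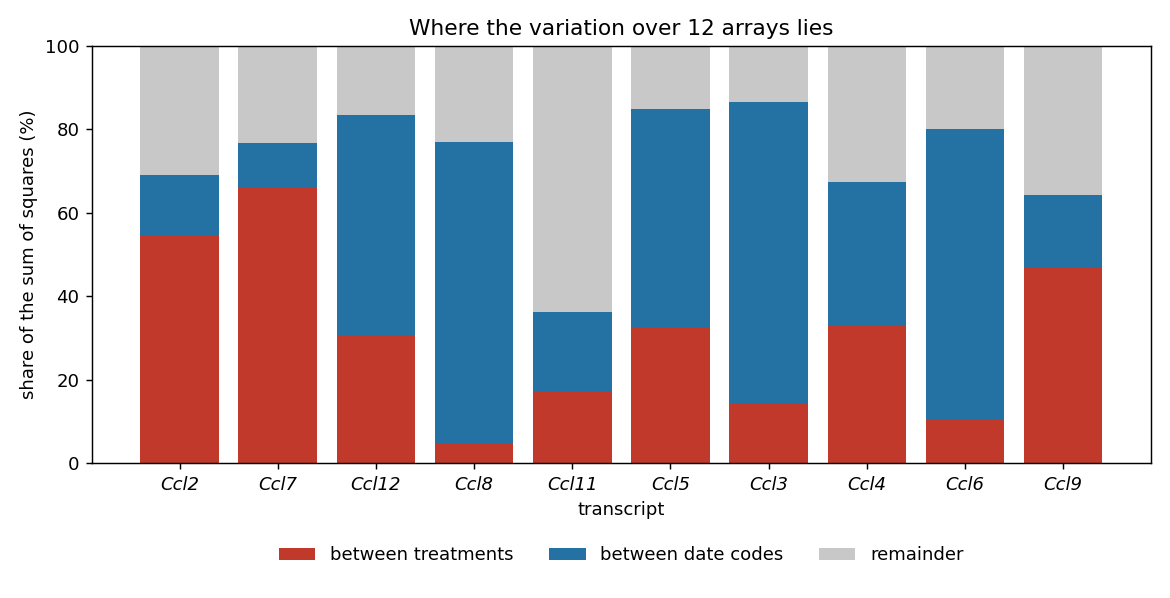
Share of each CC chemokine's sum of squares over 12 arrays (vertical axis, percent) lying between treatments, between date codes and in the remainder. Treatment takes 66.2% for Ccl7 and 54.6% for Ccl2, and the date code takes 72.2% for Ccl3 and 71.9% for Ccl8.

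Ccl2 and Ccl7 had the closest pattern of any pair of members. Over the 12 arrays their r was 0.95, and it was 0.93 over the 10 arrays left without the co-treated and MIF arrays of date code 3. The arrays formed a pair of clusters, however, 5 with Ccl2 at 14.72 to 15.43 and Ccl7 at 12.59 to 12.93, all of them exposed to MIF, and 7 with Ccl2 at 12.48 to 13.92 and Ccl7 at 11.28 to 11.99. The pooled r spans the gap between these clusters, and within the 7 lower arrays r was 0.68. Over all 45 pairs of members r ran from -0.59 to 0.95, with a median of 0.41 and 37 above 0.

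**Figure D5:**
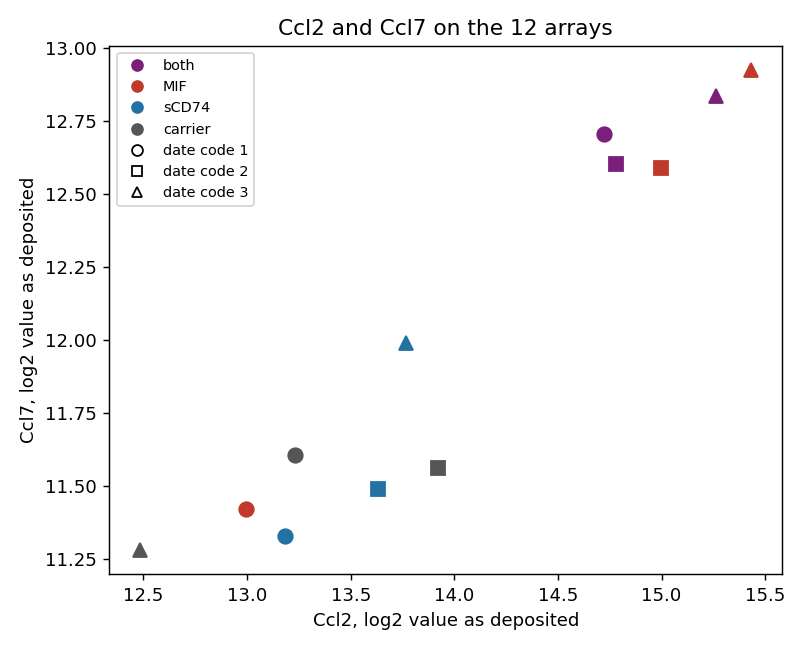
Ccl7 against Ccl2 (both log2) on the 12 arrays, coloured by treatment, with a symbol per date code. The 5 high MIF-exposed arrays lie at the upper right with Ccl2 at 14.72 to 15.43, and the MIF array of date code 1 lies with the arrays that had no MIF.

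The 3 genes most like each member were sought by Pearson's r over the 12 arrays, which share treatments and date codes, among 10992 genes above background. For Ccl2 they were Ccl7 (r = 0.95), Serpina3f (0.93) and Tnfaip3 (0.92), and for Ccl7 they were Ccl2 (0.95), Vcam1 (0.92) and Nfkbia (0.92). For Ccl5 they were H2-Q4 (0.95), Zbtb17 (0.93) and Ssr2 (0.93), and for Ccl9 they were Cox6a1 (0.93), Banf1 (0.92) and Glrx (0.92). They were Spns2, Slc15a3 and Spg21 for Ccl3 (0.97 to 0.98), Triobp, S100a16 and Twist1 for Ccl6 (0.93 to 0.96), Ednrb, Fabp3 and Pdgfc for Ccl8 (0.93 to 0.95), and Eefsec, Arel1 and Idh3g for Ccl12 (0.95 to 0.97). The values of r were lower for Ccl4 and Ccl11, whose nearest genes were Mri1 (0.86) and H2ac11 (0.84). Each r is among the highest of 10992 over only 12 arrays, and such top values can be high for unrelated genes. The named genes are thus a description of these arrays only.

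Of 13 CC chemokine receptors and atypical receptors measured, 9 had a mean below 7.53, among them Ccr2, the receptor of Ccl2, Ccl7 and Ccl12, at 4.93. Ccr1, a receptor of Ccl3, Ccl5, Ccl6 and Ccl9 found on macrophages, was the highest at 10.12. No receptor was called in any treatment comparison by limma, and in co-treated against carrier cells 3 were above and 10 below 0. In date code 1, Ackr1, a chemokine-binding receptor of endothelial cells, was higher by 0.42 and Ccr10 by 0.34, both with means below 7.53.

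Of 10 further CC chemokines, 6 lay below 7.53, and the highest was Ccl17, a ligand of Ccr4, at 11.36. None was called in a treatment comparison. Ccl17 averaged 11.63 ± 0.44 in co-treated cells and 11.06 ± 0.14 in carrier cells (SD, n = 3 each), and 4 of the 10 were above 0 in that comparison, with a median of -0.07 against +0.34 for the members. In date code 1 Ccl17 was higher by 0.52 and Ccl19 lower by -0.47, with limma's adjusted p = 0.0163 and 0.0121, the mean of Ccl19 being below 7.53.

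Chemokine transcription is driven by NF-kappaB and interferon-regulated factors, and RNA-binding proteins such as Zfp36 speed the decay of chemokine mRNA. Of 14 measured genes of this kind, none was called in a treatment comparison by limma, and 6 had unadjusted p under 0.05 between the arrays with and without MIF, against 4.31% of all genes. Nfkbia, the NF-kappaB inhibitor that NF-kappaB itself induces, averaged 12.01 ± 0.12 in co-treated cells, 11.98 ± 0.48 with MIF, 11.39 ± 0.20 with sCD74 and 11.38 ± 0.18 with carrier (SD, n = 3 each). Tnfaip3, another NF-kappaB-induced inhibitor, averaged 10.79 in co-treated cells, 10.76 with MIF, 10.15 with sCD74 and 10.07 with carrier. Irf1, an interferon-induced factor, averaged 11.35, 11.49, 10.78 and 10.91 in the same order, and Rela 14.39, 14.28, 14.05 and 14.05. The RNA-binding Zfp36 differed by less than 0.07 among all groups. With MIF alone against carrier, 13 of the 14 were above 0, with a median of +0.25. In date code 1, 6 were lower, Irf7, Tnfaip3, Irf1, Nfkbia, Jun and Relb, and Nfkbiz was higher, so these genes too differed between date codes.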

How the data were processed

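The data were 12 Affymetrix arrays of cultured mouse cardiac myofibroblasts, 3 in each of 4 treatment groups named in the titles and source names. Per the submitters' processing notes the arrays were processed with Affymetrix Expression Console, RMA and the Transcriptome Analysis Console; versions and genome build are not given in the sources used here. The deposited log2 values were used as they stand. They reach above 16, so a rescaling beyond plain RMA is possible and differences are those of the deposited scale. Of 28846 probe sets, 6640 were controls and 19572 had a single symbol in the platform annotation, updated by Entrez ID to RefSeq symbols. The probe set with the highest mean stood for each gene, leaving 19505. All 10 members had 1 probe set.

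Treatment comparisons used the linear models of limma 3.58.1 (lmFit, then eBayes; R 4.3.3) over the 4 group means of 12 arrays, two-sided, with Benjamini-Hochberg adjustment over all genes at 0.05. Date codes were fitted with treatment as an additive term. The median standard error of a treatment difference was 0.17. The number of arrays limits the precision. Fits were tested on simulated data. Same-numbered arrays share a title code and were taken as sets. The main treatment fit had no term for these sets, so its errors, intervals and adjusted p treat the arrays as unpaired. The replicate block added that term, and the median standard error was then 0.14. Deviations from group means correlated at 0.10 to 0.65 for 18 same-number pairs (17 above 0.1) and at -0.54 to 0.18 for 36 others. The replicate block, an intensity trend with robust variance, a background filter and leaving out each array were tried. All 10 members, the genes of 3 pathway lists and the 3 genes most like each member were named; members and lists were chosen with earlier results of these data known. Measured genes of these lists that are not given values enter the counts of their list but are not described singly.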

Additional observations from a re-analysis of the deposited data

Results flagged for a closer look

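In 30 sets of 4 arrays (each member within each date code), 4 held an array far from the other 3. For 4 arrays of the same treatment, chance gives about 1 in 20 sets. Each set here held 4 different treatments, and the sets shared arrays, so the count cannot show an excess over chance. Ccl2 was 14.72 in the co-treated array of date code 1, against 13.00 to 13.23 on the other arrays of that code. Ccl6 was 11.14 in the sCD74 array of date code 3, against 11.90 to 12.01. The MIF array of date code 2 was low for Ccl8, at 9.57 against 10.38 to 10.49, and for Ccl3, at 13.07 against 13.23 to 13.24.

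For Ccl6 both arrays with MIF lay above both arrays without it in date code 1, with a mean difference of +0.32, and below both in date code 2, with a mean difference of -0.18. In date code 3 the arrays with and without MIF overlapped, with a mean difference of +0.42. The difference between date codes was not tested.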

How the results depend on the processing

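With 3 arrays a group, 0 genes were called in the 7 treatment comparisons. With the replicate block 1 gene, Birc3, was called between the arrays with and without MIF and 0 in the other 6 comparisons. With the replicate block, an intensity trend and robust variance, 6 genes were called in co-treated against carrier cells (Acod1, Birc3, Clec4e, Gbp2, Slc7a3 and Slco3a1), 1 in MIF against carrier (Birc3), 2 in co-treated against sCD74 (Birc3 and Clec4e) and 3 with against without MIF (Birc3, Clec4e and Nfkbia), none of them a CC chemokine; these genes are named after their values were seen. The replicate block changed no call of a member. Leaving out a replicate number within the block, chosen after seeing the data, gave 0 to 1 genes in co-treated against carrier cells (1, Slc7a3, without replicate 2). Leaving out single arrays gave 0 to 1 genes and 0 to 1 members with against without MIF, the 1 being Ccl7 without the MIF array of date code 1.

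Without single arrays the member median was +0.26 to +0.54 in co-treated against carrier cells and +0.11 to +0.42 in MIF against carrier, where it was +0.007 without replicate 3. The sCD74 median of +0.03 has no settled sign, ranging from -0.17 to +0.24 without single arrays and from -0.031 to +0.07 without a replicate number. With the replicate block it was -0.019 without replicate 2 and -0.031 without replicate 3. It was -0.06 without the carrier array of date code 3, and Ccl8 in that comparison was +0.21 without the sCD74 array of date code 3 and as low as -0.98 without that of date code 2. The median departure from additivity was -0.035 without replicate 1, with or without the replicate block, against +0.27, and +0.02 to +0.50 without single arrays. Between date code 1 and the others 2079 to 3063 genes were called without single arrays, against 3204, and 3 to 4 members. Between date codes 3 and 2 the count was 59 to 227 genes and 0 to 2 members, against 224 and 2, and it was 734 genes with trend and robust variance, 540 among genes above background, and 1 member with no treatment term. The causes of these shifts were not tested.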
